A study of Mus musculus with 11 samples.

Results

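The late course of dextran sodium sulphate (DSS) colitis in wild-type macrophages was examined by comparing the 3 libraries titled WT day 39 with the 2 titled WT day 0, chosen by title, which are 5 of the 11 libraries of the series. DSS in the drinking water injures the lining of the colon and is used to model colitis in mice. All libraries came from mouse colon cells with the surface pattern CD45+ CD11b+ Ly6G- Ly6C- MHCII+ CD64+, that is, leukocytes of the macrophage lineage without the neutrophil and monocyte antigens. The labels give a DSS dose of 2.5% over 5 days for every library, day 0 included, and do not say whether the day 0 mice had begun to drink it. They give WT as the strain of the 5 libraries, with no age or sex. The other 6 libraries, 3 titled day 0 and 3 titled day 39, came from the strain Csf1r-EP4-/-, named for the macrophage growth factor receptor gene Csf1r and for EP4, a receptor of prostaglandin E2 encoded by Ptger4. These knockout (KO) libraries entered the statistical model and serve below only to set the change over time in WT beside the change in KO.

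Macrophages of the healthy colon take up debris and bacteria at the epithelial border, present antigen on MHC class II and are replenished from blood monocytes. In colitis the monocyte-derived cells release cytokines and chemokines, and in the repair phase macrophages help to rebuild the tissue. Prostaglandin E2, which acts on EP4, is among the signals that change macrophage cytokine output.

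The 5 WT libraries held between 4003299 and 5126194 counts, and replicates shared few genes. Genes with at least 100 counts numbered 2387 and 1864 in the day 0 libraries and 2787, 3303 and 2533 in the day 39 libraries. The mean was 2126 ± 370 (SD, n = 2) at day 0 and 2874 ± 392 (SD, n = 3) at day 39, a ratio of 1.35, and the two-sided exact permutation test gave p = 0.2, the smallest p that 2 against 3 libraries allow. At a minimum of 1000 counts the ratio was 0.901. Of 23282 gene entries, 386 reached 100 counts in all 5 libraries, 2319 in 1 day 39 library and no other, and 1010 in 1 day 0 library and no other. Over tested genes the Spearman correlation of counts was on average 0.321 for the 4 pairs of the same day and 0.266 for the 6 pairs between days. Rn45s, a precursor of ribosomal RNA, took between 9.95% and 13.7% of the counts. The titles say day 39 where the file names say day 35, and the WT day 0 library titled 2 carries the number 3 in its file name. The design text speaks of triplicates, while 2 WT day 0 libraries were analysed here. Nothing in the labels says that replicates came from separate mice, so p-values measure only the spread between these samples, which may be technical.

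**Figure D1:**
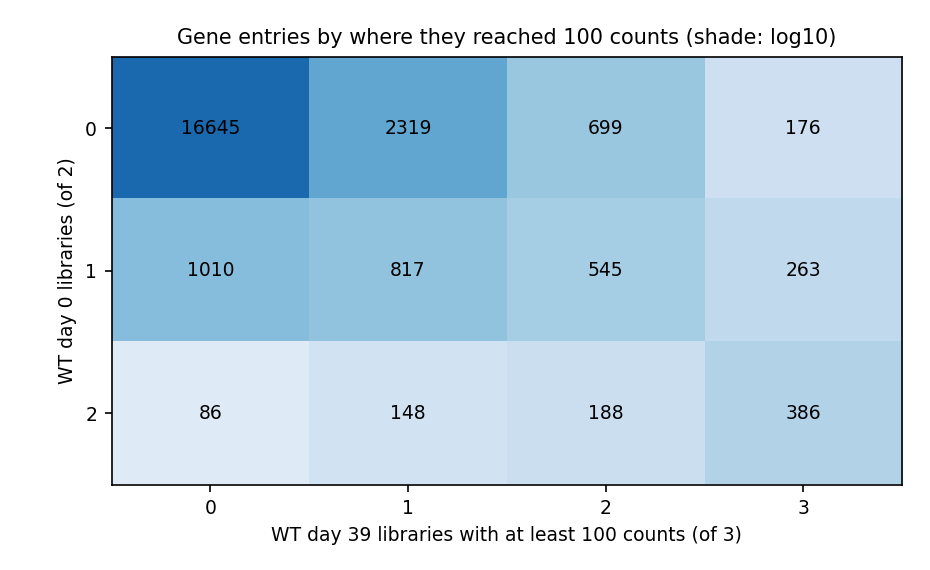
Gene entries sorted by the number of WT day 0 libraries (rows, of 2) and WT day 39 libraries (columns, of 3) in which they reached 100 counts, with the shade on a log10 scale. Of 23282 entries, 16645 reached 100 counts in no library and 386 in all 5.

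The sort markers were recovered unevenly. H2-Ab1, a chain of MHC class II, had 38147 and 41639 counts at day 0, against 22657, 27186 and 31981 at day 39. Ptprc, which encodes CD45, had 8 and 2 counts at day 0, against 1332, 940 and 1182 at day 39. Itgam, which encodes CD11b, had 2562 and 1855 against 444, 1934 and 1. Fcgr1, the gene of the defining marker CD64, had 309 and 0 against 7, 0 and 1207. Of the Ly6C genes, excluded by the sort, Ly6c1 had at most 17 counts in any of the 5 libraries and Ly6c2 had 556 in day 39 library 2 and at most 6 elsewhere. Thus H2-Ab1 was abundant in all 5 libraries, while Ptprc was nearly absent at day 0 and CD64 RNA was missing from 1 library of each day. In sorted bulk RNA, fewer cells of a type and less RNA per cell cannot be told apart.

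One gene passed the test between the days. Cryab, which encodes alphaB-crystallin, a small heat-shock chaperone that holds unfolded proteins in solution, rose at day 39. It had 0 counts in both day 0 libraries and 1420, 1432 and 5499 in the day 39 libraries, so the groups did not overlap. The day 39 level was 633 ± 502 CPM (counts per 1000000 counts of tested genes after scaling; SD, n = 3), at least 1019-fold above day 0 when each empty library is set to a floor of 3 counts. The fitted log2 fold change was 14.86 ± 3.19 (SE) and the edgeR quasi-likelihood p-value, adjusted by the Benjamini-Hochberg method over 6987 tested genes, was 0.0227. The next smallest adjusted p-value was 0.414. Cryab was thus 1 of 6987 genes, 0.0143%, and the unadjusted p-value was under 0.05 for 467 genes, 6.68%. The call was lost without either day 0 library and without day 39 library 3, where the adjusted p-values were 0.774, 0.737 and 0.204. It was also lost with scaling by DESeq2 size factors (0.0613), by library size (0.0768) and by the upper quartile (0.365), and with the WT libraries alone (0.452), values up to 10 zeroed (0.471), the block by title (0.0607) and every gene-filter alternative (0.243 to 0.594). The fitted log2 fold change stayed between 14.03 and 15.60 in all of these settings. DESeq2 and limma-voom called Cryab, among 1178 and 169 genes: of 6987 genes DESeq2 called 14.6% higher and 2.26% lower, and limma-voom 1.67% higher and 0.744% lower. DESeq2 gave no adjusted p-value for 2751 of the 6987 genes. These, list members included, could not be called and are counted here and below as not called. RefSeq places Cryab over parts of Hspb2 and 2310030G06Rik, and how the authors assigned shared reads is not stated; Hspb2 itself had no count in these 5 libraries. In the KO libraries Cryab had 5, 1866 and 2 counts at day 0, against 5376, 4559 and 8662 at day 39.

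Of the heat-shock chaperones edgeR called no member other than Cryab. DESeq2 called 2 of 20 higher and limma-voom 1 higher, beside 14.6% and 1.67% of all genes. The share above 0 lay near that of all tested genes. Heat-shock proteins of the Hsp70 and Hsp90 families refold or stabilise client proteins, and many of their genes are driven by heat-shock factor, which binds repeats of the letters GAA and their complement. Of 22 listed genes 20 were tested. A log2 fold change above 0 was found for 14 of the 20, against 61.8% of all tested genes, and for 7 with upper-quartile scaling. Their median was 0.91, against 1.64 over all genes tested, and -0.48 with upper-quartile scaling. Of the 20, 6 were higher in every day 39 library than in both day 0 libraries (Cryab, Hspa1b, Hspa5, Hsp90aa1, Dnajb1 and Hspd1) and 0 were lower; among all tested genes 12.7% were higher without overlap and 4.72% were lower. Hspa1b, an inducible Hsp70, had libraries of each day close together, with 998 and 955 counts at day 0, against 6151, 8357 and 7364 at day 39. The level of Hspa1b was 202 ± 33.0 CPM (SD, n = 2) at day 0 and 1672 ± 173 CPM (SD, n = 3) at day 39, an 8.29-fold difference, with a log2 fold change of 3.05 ± 1.5 (SE), or 1.19 with upper-quartile scaling, and an edgeR adjusted p-value of 0.414. Its near-identical neighbour Hspa1a had 4386 and 4114 against 5117, 5774 and 3102 counts, and reads may have been split between the copies.

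The remaining abundant chaperones differed less. Hsp90aa1, the inducible cytosolic Hsp90, had 3034 and 4939 counts at day 0, against 6377, 10890 and 8737 at day 39, and its log2 fold change was 1.19 ± 1.1 (SE), or -0.81 with upper-quartile scaling. Hsp90ab1, the constitutive form, had 274 and 10082 against 12047, 11285 and 10516, so that 1 low day 0 library set its log2 fold change of 1.14. Hspa5, the Hsp70 of the endoplasmic reticulum, had 3684 and 3456 against 3420, 4461 and 13516, and its log2 fold change of 1.13 became -0.77 with that scaling. The summed level of the list was 4093 and 8509 CPM in the day 0 libraries and 13909, 9646 and 13216 CPM in the day 39 libraries, a ratio of 1.95 with no overlap of the days (two-sided exact permutation test, p = 0.2 and 1 after adjustment over 39 lists), which flipped to 0.473 with upper-quartile scaling and was 2.99 without day 0 library 2. That scaling moved the median log2 fold change of the 386 genes counted in all 5 libraries from -0.03 to -2.0. Relative to this median, the 7 chaperones among the 386 had a median of 1.16 with trimmed-mean (TMM) scaling and 0.75 with upper-quartile scaling. In KO the summed level was 8797, 10753 and 8620 CPM at day 0, against 14866, 14064 and 18392 CPM at day 39, again without overlap.

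**Figure D2:**
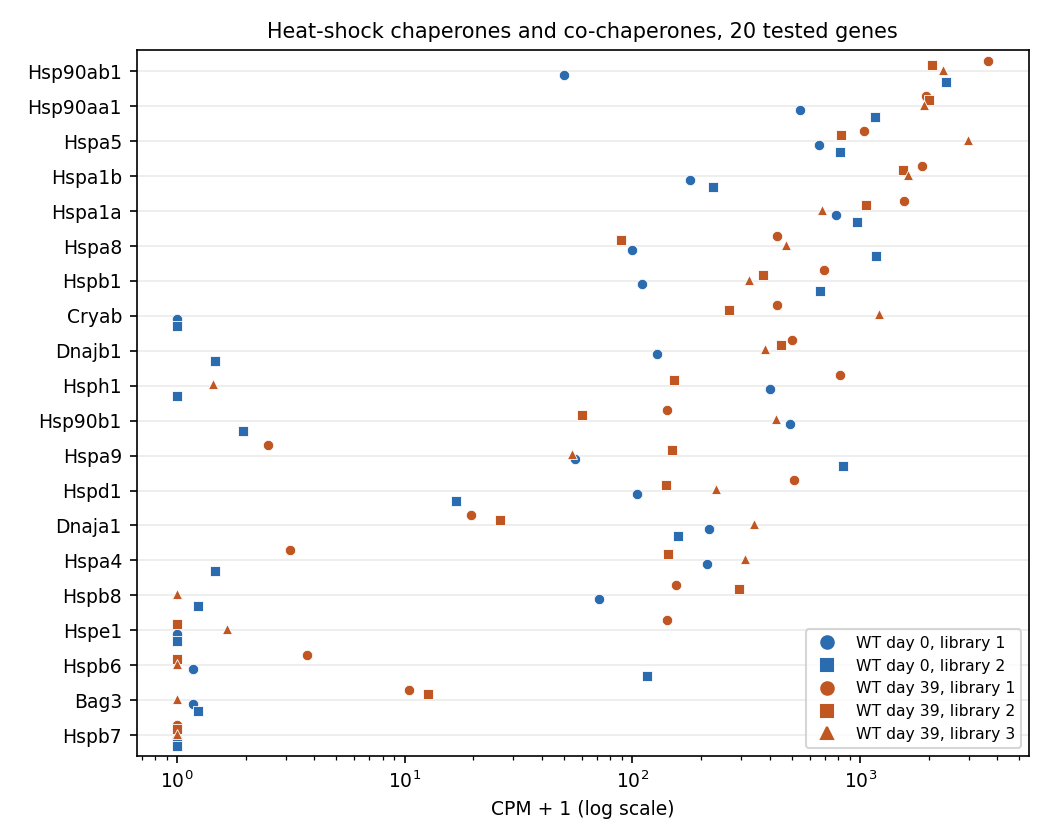
Level of the 20 tested heat-shock chaperones and co-chaperones in each WT library, as CPM + 1 on a log axis, with blue symbols for day 0 and orange symbols for day 39. The 3 day 39 symbols of Hspa1b, between 6151 and 8357 counts, lie to the right of both day 0 symbols, while those of Hsp90ab1 overlap them.

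The promoters of Hspa1b and Hspd1 are shown because both genes were higher without overlap and both windows hold the heat-shock motif. They are RefSeq promoters of build GRCm38.p6, from 250 bases before to 50 after the start, written 5′ to 3′ along the minus strand, with the motif GAANNTTC in capitals. The Hspa1b window is chr17:34959189-34959488 and the Hspd1 window, which overlaps that of the divergent gene Hspe1, is chr1:55087883-55088182; another Hspd1 window in the table holds no match.
Hspa1b: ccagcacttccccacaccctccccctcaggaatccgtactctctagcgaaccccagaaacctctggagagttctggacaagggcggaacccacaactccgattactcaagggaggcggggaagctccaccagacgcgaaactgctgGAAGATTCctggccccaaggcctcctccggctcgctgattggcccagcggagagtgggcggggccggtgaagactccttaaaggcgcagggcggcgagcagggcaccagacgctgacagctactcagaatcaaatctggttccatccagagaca
Hspd1: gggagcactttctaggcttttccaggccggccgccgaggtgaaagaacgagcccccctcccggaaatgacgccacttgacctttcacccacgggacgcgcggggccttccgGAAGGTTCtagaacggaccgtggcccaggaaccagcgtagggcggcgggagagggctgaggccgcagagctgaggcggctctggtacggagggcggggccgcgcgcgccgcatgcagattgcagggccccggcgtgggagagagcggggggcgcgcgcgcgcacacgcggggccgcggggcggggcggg
The motif reads the same on both strands. It stood in 10 of the 15 heat-shock chaperone genes whose promoters were counted. Among all genes in the table it stood in 2442 of 27025, 9.04% (2582 of 32851 promoters, 7.86%). The chaperone count left out a chromosome that the count over all genes kept, so the shares are not fully alike. Hspd1 and Hspe1 share a single site, which was counted for both. The Hspa1a window, whose gene overlapped between the days, held the motif with the same letters as that of Hspa1b, and the Hspa5 and Dnajb1 windows held none. A match is a match of letters and was not tested as a binding site.

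Ptger4, the gene of EP4 and the target of the knockout, was among the genes seen at day 39 and not at day 0. It had 0 counts in both WT day 0 libraries and 1481, 152 and 7286 in the day 39 libraries. The day 39 level was 691 ± 811 CPM (SD, n = 3), at least 1112-fold above the day 0 floor, with an edgeR adjusted p-value of 0.414. The KO libraries held 1350, 0 and 890 Ptger4 counts at day 0 and 1, 8 and 4501 at day 39, so the gene did not separate the strains; a 3′ read can also come from a transcript that lacks an internal exon. Of the 24 genes of the prostaglandin and leukotriene list, 10 were tested. Of these edgeR called 0, with 2 at an unadjusted p-value under 0.05, beside 6.68% of all tested genes. DESeq2 called 3 higher, beside 14.6% of all genes, and limma-voom 2 higher (Ptger4 and Hpgds) and 1 lower (Tbxas1), beside 1.67% and 0.744%. Tbxas1, which makes thromboxane, went the other way, with 1942 and 4245 counts at day 0 and 0 in all 3 day 39 libraries, at least 953-fold lower than at day 0. RefSeq places Tbxas1 over Hipk2 and several other genes. Hpgds, which makes prostaglandin D2, had 0 and 1 counts against 192, 1087 and 1821. Ptger2, Ptger3 and Ptgir, the receptors nearest to EP4 in the list, and the synthase gene Ptges had no count in any WT library.

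The same pattern was common among genes with small p-values: of the 467 with an unadjusted p-value under 0.05, 424 had at most 3 counts in every library of one of the days. In all, 124 genes had at most 3 counts in both day 0 libraries and at least 100 in all 3 day 39 libraries, and 48 had the reverse. Without overlap, 884 tested genes were higher at day 39 and 330 were lower, the shares of 12.7% and 4.72% given above. Of these calls without overlap 72.8% were higher with TMM scaling, and 53.5% (685 higher, 595 lower) with upper-quartile scaling. A group of 2 libraries is more easily at 0 throughout than a group of 3, and the day 39 libraries also held more genes with at least 100 counts. The part of either in the next counts was not tested. Of the tested genes, 2547 were at or under the floor of 3 counts only at day 0, against 660 only at day 39. With the empty side of such genes set to the floor, the median over the 6987 tested genes was 1.27 on the log2 scale in place of 1.64.

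Among the genes averaging at least 100 CPM, the 12 with the smallest p-values that were higher at day 39 without overlap included Cryab and Ptger4. C3, the central complement component, had 0 and 0 counts at day 0, against 761, 1890 and 2342 at day 39, at least 586-fold higher, with a log2 fold change of 14.07 ± 3.8 (SE). Il1rn, the interleukin-1 receptor antagonist, had 0 and 1 against 1040, 661 and 5756 counts. Emilin2, an extracellular matrix glycoprotein, had 0 and 0 against 1769, 722 and 3000. These 3 genes were in each case well covered in all day 39 libraries and nearly empty at day 0, and each had an edgeR adjusted p-value of 0.414. Slc38a1, a glutamine transporter, had 0 and 0 against 1793, 1607 and 816 counts. Arid4b, a subunit of a histone deacetylase complex, had 0 and 2 against 2083, 8068 and 3259. Hnrnpa0, an RNA-binding protein, had 0 and 4 against 330, 1625 and 4735. D17Wsu92e, which RefSeq names Ilrun, had 0 and 0 against 503, 485 and 1256. Those 4 genes had their lowest day 39 library far above both day 0 libraries. The choice of genes without overlap and with the smallest p-values favours such a gap, here as for the 3 above. Pigr, the epithelial receptor that carries IgA into the gut, had 0 and 1 against 5114, 125 and 2406. Adam1b rested on 1 library, with 16421 counts in day 39 library 2 and at most 3 counts in each of the other WT libraries. Of the higher genes, Emilin2 in KO had 1, 0 and 0 at day 0, against 4681, 642 and 1106 at day 39, while Hnrnpa0 had between 1157 and 4780 in all 6 KO libraries.

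The 12 genes that were lower at day 39 without overlap had adjusted p-values of 0.414 as well. Fto, an RNA demethylase, had 2251 and 1658 counts at day 0 and 0 in every day 39 library, at least 561-fold lower. Cpsf6, a factor of RNA 3′-end cleavage, had 1571 and 3948 against 0, 0 and 0. Ddx6, a helicase of mRNA decay, had 2491 and 4050 against 1, 0 and 1. Slirp, a mitochondrial RNA-binding protein, had 1608 and 2457 against 0, 0 and 1. These 4 genes were nearly empty at day 39 in all 3 libraries, which the choice of genes without overlap and with the smallest p-values favours. Klhl28, Ppip5k2 and Engase were at 0 in all 3 day 39 libraries, with between 1069 and 3691 counts at day 0. Rad50, of the DNA double-strand break complex, had 18 and 4487 counts at day 0, and 1 library made its mean. Dynll2, a dynein light chain, had 2888 and 3582 against 4, 1 and 0. BC100530 had 362 and 3025 against 5, 0 and 0. Krt10, a keratin of the epidermis, had 1218 and 6959 against 17, 561 and 1. In KO, Fto had 0, 2693 and 0 counts on day 0 and 8, 442 and 2916 on day 39.

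**Figure D3:**
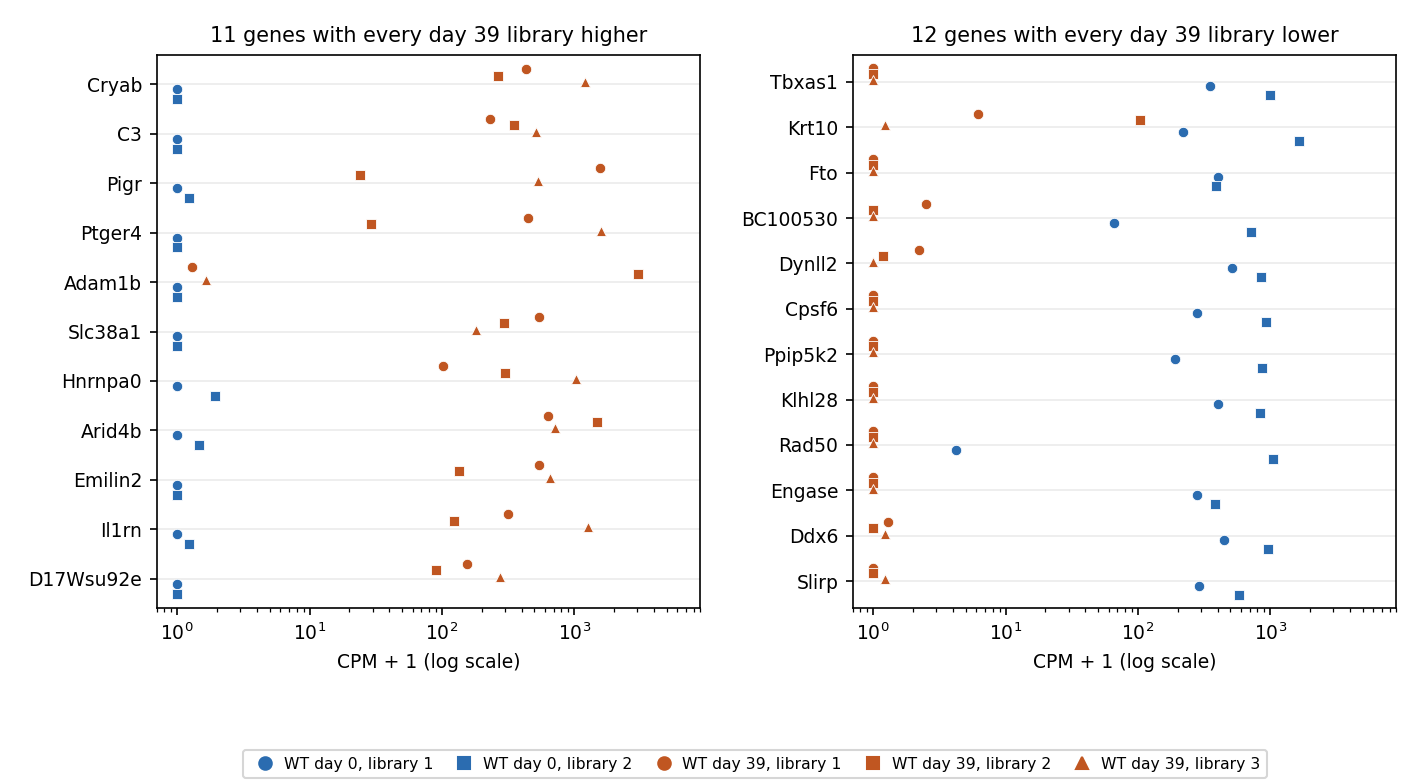
Level in each WT library, as CPM + 1 on a log axis, of 11 genes that were higher (left) and 12 that were lower (right) in every day 39 library, from those with the smallest p-values; blue marks day 0 and orange day 39. Of the 23 genes drawn, Cryab passed the test; Adam1b and Rad50 each rest on 1 library.

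The 386 genes with at least 100 counts in all 5 libraries are those for which a fold change rests on reads at both times. Their log2 fold changes centred on -0.03 (quartiles -0.73 and 0.56), and 188 of them, 48.7%, were above 0. Without overlap 35 were higher, 9.07%, and 43 were lower, 11.1%. This balance depended on the scaling: 135 genes were above 0, with 28 higher and 78 lower without overlap, by DESeq2 size factors; 169, with 34 and 63, by library size; and 27, with 5 and 153, by the upper quartile. Fitted alone to the 5 WT libraries, an analysis added after the data were seen, they had a biological coefficient of variation of 0.670, with 0 genes called by edgeR and 31 at an unadjusted p-value under 0.05.

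Among the 8 of these genes with the highest fold changes, 7 were higher in every day 39 library. A choice by fold change favours genes without overlap. Ctsz, a lysosomal cathepsin, had 174 and 153 counts at day 0, against 1557, 2812 and 1616 at day 39, a 13.3-fold difference in mean CPM with a log2 fold change of 3.74 ± 3.14 (SE), or 1.94 with upper-quartile scaling. Glul, glutamine synthetase, had 125 and 242 against 2330, 1045 and 2947. Cmip, an adaptor protein of T cell signalling, had 122 and 167 against 1883, 1025 and 2487. Libraries of the same day lay closer for Ctsz than for Glul and Cmip, whose day 39 library 2 was well below the other day 39 libraries. None of these 3 genes had an adjusted p-value under 0.414 in the model of all 11 libraries, and each had 0.191 in the fit of the 386 genes to the 5 WT libraries (edgeR). Atp5g3, a subunit of mitochondrial ATP synthase, had 1326 and 513 against 7574, 1773 and 14781. Tpm2, a tropomyosin of muscle, had 755 and 745 against 2136, 8484 and 4445, and Sprr2a3, an epithelial small proline-rich protein with near-identical copies, had 228 and 186 against 2430, 1037 and 2358. Hspa1b, described above, was the remaining one. Plekhh2 had the largest value, 3.96, through 53942 counts in day 39 library 1, and its value without that library was -2.48.

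The 8 with the lowest fold changes were lower in every day 39 library, which a choice by fold change favours. Gpx1, a glutathione peroxidase that removes hydrogen peroxide, had 3972 and 4058 counts at day 0, against 639, 140 and 432 at day 39, a 7.95-fold difference with a log2 fold change of -2.99 ± 2.26 (SE) and an edgeR adjusted p-value of 0.467. Prex1, which activates Rac in leukocyte migration, had 2612 and 1804 against 215, 647 and 345. Rab1, a GTPase of transport from the endoplasmic reticulum, had 5204 and 1077 against 293, 199 and 505. Vmp1, needed for autophagosome formation, had 4158 and 5624 against 218, 1948 and 1265. The gap was wider for Gpx1 and Prex1 than for Rab1 and Vmp1. Libraries of 1 day spread over several-fold for Gpx1, Rab1 and Vmp1. The others were 5830417I10Rik, Kctd12, Tmem256 and Dync1i2, with log2 fold changes of -3.25, -2.31, -2.23 and -2.06.

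**Figure D4:**
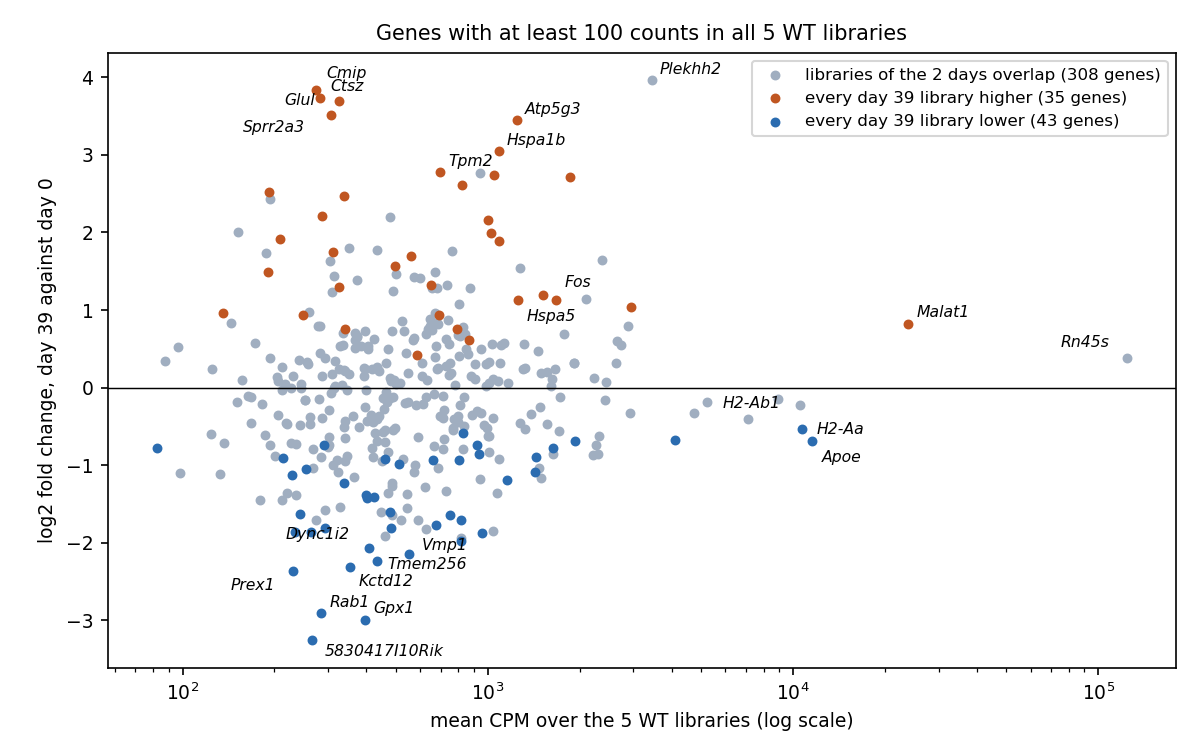
Log2 fold change from day 0 to day 39 in WT against the mean CPM over the 5 WT libraries (log axis) for the 386 genes with at least 100 counts in every WT library. Orange marks the 35 genes higher and blue the 43 genes lower in every day 39 library; abundant macrophage genes such as Apoe and H2-Aa lie between -1 and 0.

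Of the genes that mark the resident macrophage, edgeR called 0, with 0 at an unadjusted p-value under 0.05, DESeq2 called 1 higher and 1 lower, beside 14.6% and 2.26% of all genes, and limma-voom called 1, Apoe, lower, beside 0.744%. Of 23 tested identity genes, 9 had a log2 fold change above 0, the median was -0.48, and 5 were lower without overlap (Csf1r, Cx3cr1, Maf, Apoe and Il10ra) against 1 higher (Cd14), beside 4.72% lower and 12.7% higher among all tested genes. Of the 8 identity genes among the 386, 1 was above 0. Csf1r, the receptor for the growth factor on which macrophages depend, had 7827 and 4879 counts at day 0, against 2679, 4558 and 2125 at day 39; its level was 1274 ± 176 CPM (SD, n = 2) and 706 ± 208 CPM (SD, n = 3). Apoe, the lipid carrier and the most abundant gene of the list, had 87151 and 60535 counts against 19265, 46497 and 61016, with a log2 fold change of -0.69 ± 0.45 (SE) and an edgeR adjusted p-value of 0.421. The summed identity level overlapped between the days, at 26322 and 22927 CPM against 12862, 14620 and 23598.

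Of the genes of MHC class II presentation and of the lysosome, edgeR called 0, with 0 at an unadjusted p-value under 0.05; DESeq2 and limma-voom each called 1 lysosomal gene, higher, beside 14.6% and 1.67% of all genes, and 0 of MHC class II. The summed levels of both lists overlapped between the days with TMM scaling and were lower in every day 39 library with library-size scaling. Of 11 tested MHC class II genes 2 were above 0, with a median of -0.40. H2-Aa and H2-DMb1 were lower without overlap and 0 were higher, beside 4.72% and 12.7% of all tested genes. H2-Aa had 74465 and 55518 counts at day 0, against 30726, 35433 and 52179 at day 39, with a log2 fold change of -0.54 ± 0.46 (SE) and an edgeR adjusted p-value of 0.536. For H2-Eb1 and for Cd74, the invariant chain, the log2 fold changes were -0.14 ± 0.51 and -0.19 ± 0.66 (SE). Of 25 tested lysosomal genes 11 were above 0, and 5 of the 15 among the 386; Ctsz and Hexa were higher without overlap and Ctsh, Lamp1 and Lipa lower, beside 12.7% and 4.72% of all tested genes; Psap, which activates sphingolipid breakdown, had a log2 fold change of -0.32. Of 17 tested genes of lipid and cholesterol handling 11 were above 0, or 6 with upper-quartile scaling, with a median of 0.63. Their summed level went the other way, lower at day 39 with TMM scaling and overlapping with library-size scaling (two-sided exact permutation test with TMM, p = 0.2 and 1 after adjustment over 39 lists), at 17837 and 17028 CPM against 7719, 11576 and 15889, a ratio of 0.673; Apoe alone accounted for 14917 CPM of the day 0 mean and 9254 CPM of the day 39 mean. Of 12 tested complement genes edgeR called 0, DESeq2 5 higher and limma-voom 1 higher, beside 14.6% and 1.67% of all genes. C3, Cfb and Cd55 were higher without overlap and Serping1 was lower, beside 12.7% and 4.72% of all tested genes. The C1q chains, made by macrophages, overlapped between the days: C1qa had 13726 and 7521 counts against 7632, 8818 and 13688, and C1qc had 16147 and 5780 against 2549, 7614 and 4310. Slc40a1, the iron exporter ferroportin, had 4640 and 1232 counts at day 0, against 390, 3 and 1 at day 39, and in KO it had between 2466 and 6474 counts at day 0 and 0 in all 3 day 39 libraries.

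Genes of inflammation and recruitment gave a mixed picture. Of 15 tested chemokine genes 9 were above 0, or 7 with upper-quartile scaling; Ccl6, Ccl8, Cxcl1 and Cxcl16 were higher without overlap and Ccl4 was lower, beside 12.7% and 4.72% of all tested genes. Ccl6 had 4 and 184 counts at day 0, against 742, 3742 and 3054 at day 39, whereas Cxcl2, a neutrophil attractant and the most abundant chemokine, had 16741 and 12512 against 2757, 7269 and 14544. Of 15 tested cytokine and receptor genes 9 were above 0. Il1a, Il1rn, Tnfrsf1b and Ifngr1 were higher without overlap and Osm and Il10ra were lower, beside the same 12.7% and 4.72%. Il1b, interleukin-1 beta, had 8724 and 2184 counts against 7192, 5478 and 29785, with a log2 fold change of 1.64 ± 0.89 (SE) and an edgeR adjusted p-value of 0.414; the days overlapped and day 39 library 3 was the highest. Osm, oncostatin M, had 2518 and 3208 counts against 4, 1118 and 0. In the monocyte list S100a6 had 2207 and 1435 against 7212, 7672 and 3573, and F13a1, a coagulation factor of monocytes and tissue macrophages, had 5299 and 3249 against 581, 243 and 40. F13a1 was also low at day 39 in KO, with 2184, 7540 and 3533 counts at day 0, against 0, 22 and 198 at day 39.

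Immediate-early genes, which are induced within minutes by stress or handling as well as by receptor signals, did not share a direction. Fos had 6278 and 3515 counts at day 0, against 8733, 9235 and 9463 at day 39, higher without overlap, and its log2 fold change of 1.13 became -0.55 with upper-quartile scaling; relative to the median of the 386 genes it was 1.17 with TMM and 1.45 with upper-quartile scaling. Dusp1, a phosphatase that ends kinase signalling, had 11906 and 7857 against 3340, 5200 and 5641, lower without overlap. Jun overlapped, with a log2 fold change of 0.32 ± 0.87 (SE). Of 22 tested genes of this list 15 were above 0, with a median of 0.43, or 6 with a median of -1.39 with upper-quartile scaling. Of 19 tested interferon-stimulated genes 8 were above 0 and none differed without overlap, while their summed level with TMM scaling was lower at day 39, at 2760 and 3278 CPM against 1863, 2452 and 2722, and overlapped between the days with library-size scaling. Ifitm3, an inhibitor of virus entry, had 5840 and 5525 counts against 1004, 4128 and 6618, and Irf1, an interferon-regulated transcription factor, had 1297 and 3333 against 514, 1798 and 3025.

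Marker genes of the colon epithelium mostly had log2 fold changes above 0. Of the 24 genes of the colonocyte list edgeR called 0, with 5 at an unadjusted p-value under 0.05, beside 6.68% of all tested genes. DESeq2 called 6 of the 24, all higher, beside 14.6% of all genes, and limma-voom 0. Of the 14 tested goblet and secretory genes edgeR called 0, with 3 at an unadjusted p-value under 0.05, beside the same 6.68%. DESeq2 called 3 of these 14 higher and limma-voom 1 higher, beside 14.6% and 1.67%. Of 24 colonocyte genes, all of them tested, 23 had a log2 fold change above 0, against 61.8% of all tested genes, with a median of 5.63 (4.43 with genes at or under the floor set to it), and 11 were higher without overlap and 0 lower, against 12.7% and 4.72% of all tested genes. The summed colonocyte level was 1211 and 2962 CPM at day 0, against 12664, 5437 and 5404 CPM at day 39, a ratio of 3.75 (two-sided exact permutation test, p = 0.2 and 1 after adjustment over 39 lists), 6.47 without day 0 library 2, and 0.863 with upper-quartile scaling, which lowered the 386 genes as a whole. Under that scaling 20 of the 24 genes were still above 0, with a median of 4.99, and the 4 among the 386 had a median 2.80 above that of the 386, against 2.64 with TMM. Sprr2a2 had 2176 and 370 counts against 8229, 2537 and 8150, and Ceacam1, an adhesion molecule of epithelium and leukocytes, had 1 and 604 against 4439, 2687 and 1549. Car1, a carbonic anhydrase of colonocytes, overlapped, with 87 and 3230 against 7361, 4422 and 1408. No gene of this list was at 0 in all 5 libraries. In KO the sum was also higher without overlap, at 1968, 195 and 1308 CPM at day 0, against 10262, 8984 and 20350 CPM at day 39. Goblet and secretory genes summed to 1240 and 430 CPM at day 0, against 5843, 643 and 1590 CPM at day 39; Muc2, the main mucin, had 4225 and 0 counts against 5674, 1386 and 121, and Ang4 and Chga were at 0 throughout.

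Marker lists of other cell types differed between libraries of the same day, and the source of their RNA was not tested. The stromal list summed to 4054 and 18137 CPM at day 0, against 12041, 10289 and 6910 CPM at day 39, led by Col1a1, a collagen chain, with 4814 and 24513 counts against 8134, 19453 and 8721. The skeletal muscle list summed to 2997 and 10086 CPM against 5163, 18678 and 7801, and its myosin Myh4 had 764 and 3061 counts against 4480, 24155 and 11901, higher without overlap. Cryab and Tpm2 are also expressed in muscle, and Pigr, Krt10, C3 and the Sprr2a genes in epithelia; the part of epithelial and muscle RNA in their differences was not tested. Of the lymphocyte lists, that of B and plasma cells summed to at most 210 CPM in any WT library, with Cd79a, Cd79b, Ms4a1 and Pou2af1 at 0. The T and NK cell list summed to 416 and 6.83 CPM at day 0 and 1.52, 321 and 235 CPM at day 39, with Cd3d, Cd3e and Cd3g at 0 throughout. Mertk, of the resident macrophage list, was also at 0 in every WT library, so a count of 0 does not show that a cell type was absent. The neutrophil list summed to 85.4 and 2.12 CPM at day 0 and 93.8, 307 and 196 CPM at day 39. The abundant nuclear RNA Malat1 was higher without overlap, with 99118 and 62856 counts at day 0, against 105142, 102685 and 162407 at day 39, though below 0 on the log2 scale (-0.93) with upper-quartile scaling, while Actb, the actin of the cytoskeleton, overlapped, with 48638 and 61145 against 30193, 50095 and 51907.

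**Figure D5:**
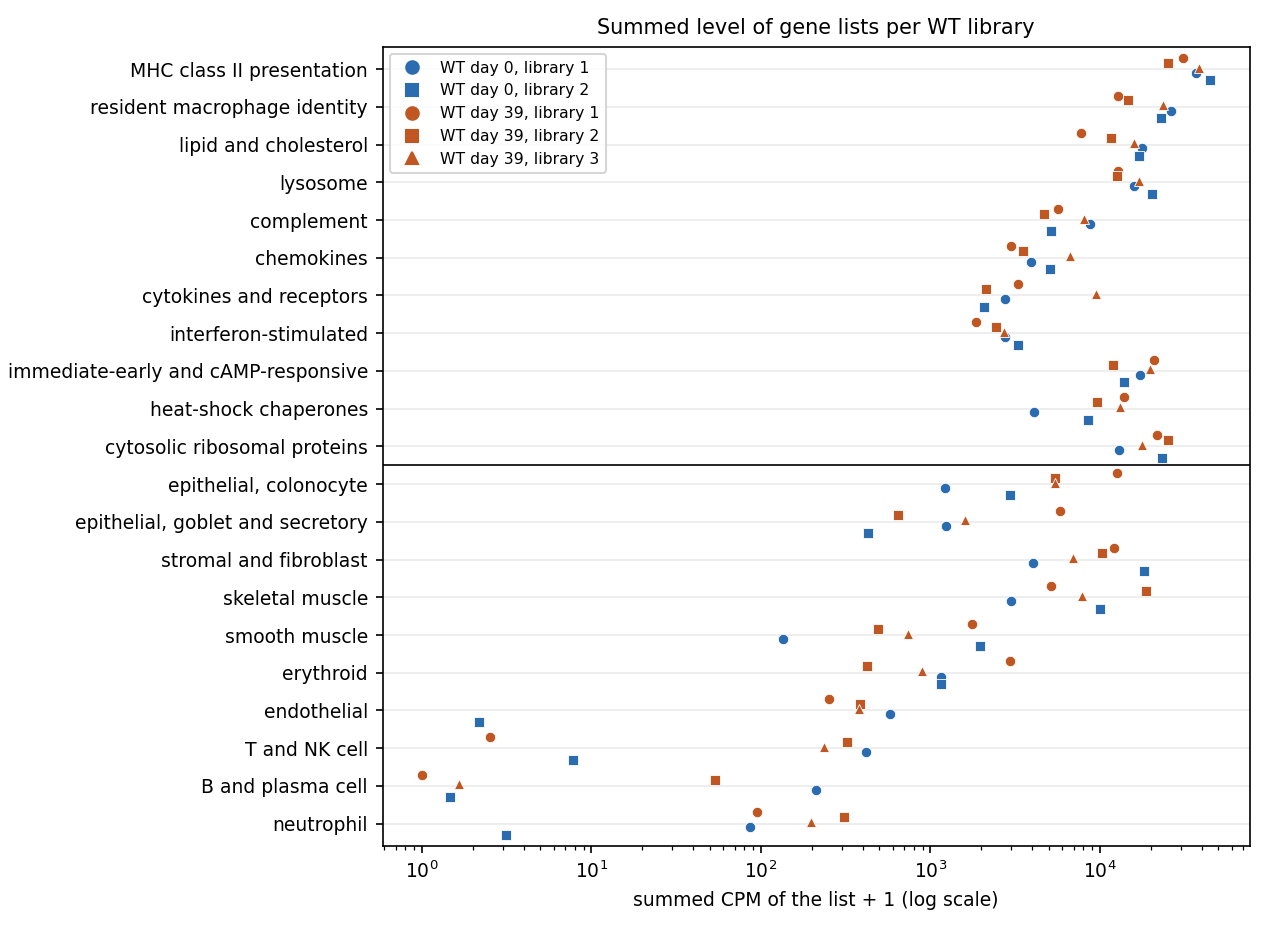
Summed CPM + 1 of gene lists in each WT library on a log axis, with macrophage and general lists above the line and lists of other cell types below it; blue marks day 0 and orange day 39. The 3 day 39 symbols lie to the right of both day 0 symbols for the heat-shock, colonocyte and neutrophil lists, and to the left for the lipid and interferon-stimulated lists, all with TMM scaling; with library-size scaling the neutrophil, lipid and interferon-stimulated lists overlapped and others, such as MHC class II and the lysosome, were lower without overlap, and the heat-shock and colonocyte ratios were below 1 with upper-quartile scaling.

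Whether the change from day 0 to day 39 differed between WT and KO was asked by the interaction term of the same model. No gene passed (edgeR, 0 of 6987, 0%; smallest adjusted p-value 0.0583), and 1006 had an unadjusted p-value under 0.05; DESeq2 called 934 and limma-voom 19. For Cryab the fitted log2 fold change was 14.86 in WT and 4.31 in KO, and the fitted difference of 10.55 ± 2.99 (SE) had an adjusted p-value of 0.324; with the WT day 0 libraries at 0, its size is set by the fit, and the floor gives 9.99 for WT. For Hspa1b the values were 3.05 and 2.05, with a difference of 1.0 ± 1.78 (SE). For Gpx1 they were -2.99 and 1.65, with a difference of -4.64 ± 3.04 (SE) and an adjusted p-value of 0.456. The errors span several log2 units for the genes named above, so an adjusted p-value over 0.05 does not show that the strains changed alike.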

How the data were processed

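RNA was sequenced from sorted mouse colon macrophages. Per the labels' protocols, Trizol was used and 500 ng of total RNA entered each Lexogen QuantSeq library, whose reads lie at transcript 3′ ends. The authors deposited whole-number counts per gene symbol, 1 file per library. Per the submitters' processing notes, Bowtie2, edgeR and the build hg19, a human build, were named, with no versions or roles; annotation, strand setting and the use of molecular identifiers are not given in the sources used here. No coordinates were therefore taken from the files.

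Genes were kept by filterByExpr in edgeR 4.0.16 (R 4.3.3; 6987 tested, 16295 not), scaled by TMM and fitted by a robust quasi-likelihood model with 1 coefficient per group to all 11 libraries; p-values are two-sided, adjusted by Benjamini-Hochberg at 0.05. SE is the log2 fold change over the square root of F. CPM uses the TMM-scaled sum over tested genes. Floors are 3 counts per library and cover counting error only. Summed levels and detected genes were compared by exact permutation tests (SciPy 1.17.1). Deviations from the group mean of libraries with the same number in their titles correlated at 0.0227 and 0.00891. The WT libraries numbered 3 in their file names gave 0.0140. With 2 day 0 libraries, whose deviations mirror each other, such values cannot show whether replicate numbers pair the libraries. The procedure was also run on simulated counts with means pooled over the libraries. The outcome is not given here and does not bear on the genes named.

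The comparison, the gene lists and the tests were chosen with earlier results of these data known. Named genes were those with an adjusted p under 0.05; of genes averaging at least 100 CPM without overlap, the 12 higher and 12 lower with the smallest p; of genes with at least 100 counts in all 5 libraries, the 8 highest and 8 lowest fold changes; Ptger4; the sort markers; and up to 4 members per list with the highest mean CPM. List members named only as differing without overlap, as lying at 0, as copies or for a promoter, and Hspa1a, were chosen after their values were seen. Some genes that the rule or the lists take in are not reported here. Alternatives were other scalings, tests (DESeq2 1.42.0, limma 3.58.1), filters, the WT libraries alone, replicate blocks and leaving out each library.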

Additional observations from a re-analysis of the deposited data

Results flagged for a closer look

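With TMM scaling, the summed level of the interferon-stimulated genes was lower in all 3 WT day 39 libraries than in both WT day 0 libraries, with a ratio of day 39 to day 0 of 0.777, and was higher in all 3 KO day 39 libraries than in all 3 KO day 0 libraries. The KO sums were 3209, 321 and 1077 CPM at day 0 and 5108, 3248 and 5236 CPM at day 39. The WT libraries lay close, at 2760 and 3278 CPM at day 0 and up to 2722 CPM at day 39 (two-sided exact permutation test, p = 0.2 and 1 after adjustment over 39 lists). With library-size scaling they overlapped, at 2845 in day 0 library 2 and 2921 in day 39 library 2, while KO stayed higher in every day 39 library. The difference between the strains was not tested.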

How the results depend on the processing

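With TMM scaling 1 gene was called between the days. Scaling by DESeq2 size factors or by library size gave 0 calls, and so did testing every gene with a count, a minimum mean of 10 or of 1000, zeroing all values up to 10, and the replicate block by title. There were 0 calls among the 386 genes fitted to the 5 WT or to all 11 libraries, both added after the data were seen. The 5 WT libraries alone gave 2 (Zfp219 and Malat1), the replicate block by file number 2 (Zfp219 and Cryab), the non-robust model 4, upper-quartile scaling 1 (Rn45s, lower, and not Cryab), limma-voom 169 and DESeq2 1178. Leaving out each library gave 0 to 1. Cryab had an adjusted p-value of 0.0613 under DESeq2 scaling, 0.0768 under library-size scaling, 0.365 under upper-quartile scaling and 0.0607 with the replicate block by title; it was highest, 0.594, with every gene tested among the settings that kept every library, and between 0.204 and 0.774 without either day 0 library or day 39 library 3, and the lowest was 4.54e-05, from DESeq2.

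For the difference between WT and KO, 0 genes were called; 2 with DESeq2 size factors and with library size, 5 with the upper quartile, 934 with DESeq2, 19 with limma-voom, 4 with the non-robust model, 1 after zeroing values up to 10, and 0 to 2 without each library. The heat-shock ratio was 0.473 with the upper quartile and 1.44 to 2.99 without each library, the highest without day 0 library 2; the colonocyte ratio was 2.60 to 6.47. The detected-gene ratio was 0.901 at 1000 counts and 1.20 to 1.54 without each library.

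The following uncalled log2 fold changes turned their sign. With upper-quartile scaling the values were -1.25 for Hsp90ab1, -0.81 for Hsp90aa1, -0.77 for Hspa5, -0.55 for Fos, -1.69 for Jun, -1.55 for C1qa, -0.91 for Car1, -0.066 for Muc2, -1.53 for Rn45s and -0.93 for Malat1; Rn45s was called there. Upper-quartile scaling lowered the median of the 386 genes from -0.03 to -2.0, and relative to that median these genes were above 0 with both scalings (Hsp90aa1 1.22 with TMM and 1.19 with the upper quartile, Malat1 0.86 and 1.07, C1qa 0.16 and 0.45). With DESeq2 size factors and with DESeq2, Jun was -0.0061 and C1qa -0.21. C1qa was -0.10 with library size, -0.055 at a mean of 1000 counts and -0.0462 in the 386 genes fitted to all 11 libraries. Plekhh2 was -0.14 and Col1a1 0.47 with limma-voom. After zeroing values up to 10, Cd74 was 0.00397, Col1a1 0.27 and Actb 0.030. With the replicate block by title Cd74 was 0.019 and Col1a1 0.10, and by file number Irf1 was 0.50. Col1a1 was 0.11 in the 386 genes fitted to the 5 WT libraries. Without each library the ranges were -2.48 to 5.22 for Plekhh2, -4.69 to 12.08 for Fcgr1, -0.41 to 0.027 for H2-Eb1, -0.45 to 0.040 for Cd74, -0.018 to 5.85 for Hsp90ab1, -0.11 to 0.70 for Jun, -1.21 to 0.82 for Irf1, -0.11 to 0.21 for C1qa, -1.56 to 14.92 for Muc2, -1.33 to 1.68 for Col1a1 and -0.73 to 0.27 for Actb. The cause of these sign changes was not tested for any setting.

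The day 0 group held 2 libraries, and 2 against 3 libraries cannot give an exact p-value under 0.2. For genes at 0 in a whole group, a fitted log2 fold change depends on the prior count, and only the folds written as "at least" are bounds.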
